A study of Mus musculus with 9 samples.

Results

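The genes described here are 37 DNA replication and S-phase genes, listed by name as the parts of the machinery that licenses replication origins, opens them, copies DNA and supplies nucleotides and histones. They were followed in TAMH cells, a hepatocyte line derived from mice transgenic for TGF-alpha (strain C57BL/6 per the labels), so all groups carry that growth factor transgene and all belong to 1 line. Cells were given APAP (acetaminophen, 2 mM), AMAP (its meta regioisomer, in which the ring hydroxyl sits at the meta and not the para position, 2 mM) or control medium, and were harvested after 2, 6 or 24 h. The title names AMAP as the less hepatotoxic isomer, and the design text calls the series preliminary. Each of the 9 combinations of treatment and time was measured on 1 Affymetrix array, from confluent cells in 2 dishes per treatment per the labels, and whether the dishes were pooled is not given in the sources used here. A gene was read from 1 probe set, the brightest on average among those annotated to it alone. Of the 37 genes, 35 had such a probe set (Gins2 and Chaf1a had none) and 34 were expressed, with a mean of 5.67 log2 or more, the median of the probe-set means. Ccne2 had a mean of 5.38 and was not. They are 34 of 6700 expressed genes among 12393 genes in all.

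DNA replication is prepared in G1, when the origin recognition complex with Cdc6 and Cdt1 loads the Mcm2 to Mcm7 helicase on DNA, and is fired in S phase, when Cdc45 and the GINS complex turn that helicase on and the polymerases follow. Many of these genes are transcribed at the border of G1 and S by E2F factors, which cyclin E with its kinase sets free from the retinoblastoma family. Adult hepatocytes in the liver rarely divide, whereas a hepatocyte line such as TAMH proliferates in culture.

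The E2F binding motif was looked up in the RefSeq promoter windows of GRCm38.p6, which run from 250 bases before to 50 bases after a gene's start. The letters searched were TTTCCCGC, TTTGGCGC, TTTCGCGC and TTTGCCGC, on both strands. At least 1 of them was in the windows of 12 of the 31 genes of the list that had a window (38.7%). The same held for 304 of 5534 expressed genes with a window (5.49%) and 704 of all 27025 genes with one (2.605%). Counted by window and not by gene, it was 2.26% of all 32851 windows. Among the genes of origin licensing it was 7 of 9. Of 24 mitosis genes with a window, given further down for comparison, 1 held an E2F match (4.17%), while 17 (70.8%) held TTTGAA, the core of the CHR element known from mitosis genes. That string was in 3 of the 31 replication genes (9.68%) and in 13.7% of expressed genes. The CCAAT box was in 19 of 31 replication genes (61.3%), 20 of 24 mitosis genes (83.3%) and 44.0% of expressed genes. A match is a description of the letters and not a measured site. The 250 bases before the start are printed for 4 genes whose values are described in detail, 5′ to 3′ on the gene's strand, with E2F matches in capitals. Orc1 lies at chr4:108579204-108579453 (+), Cdc6 at chr11:98907901-98908150 (+), Mcm6 at chr1:128359706-128359955 (-) and Pola1 at chrX:93632156-93632405 (-).
Orc1: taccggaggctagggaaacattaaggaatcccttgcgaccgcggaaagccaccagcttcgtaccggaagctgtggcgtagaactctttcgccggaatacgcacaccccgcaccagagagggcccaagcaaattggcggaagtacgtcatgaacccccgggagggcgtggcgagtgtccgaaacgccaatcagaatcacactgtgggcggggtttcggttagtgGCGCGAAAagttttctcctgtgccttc
Cdc6: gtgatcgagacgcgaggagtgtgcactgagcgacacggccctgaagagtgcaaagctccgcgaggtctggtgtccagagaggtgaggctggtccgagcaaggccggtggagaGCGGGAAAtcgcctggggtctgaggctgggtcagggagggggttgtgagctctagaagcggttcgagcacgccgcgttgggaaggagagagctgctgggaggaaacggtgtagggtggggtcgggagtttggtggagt
Mcm6: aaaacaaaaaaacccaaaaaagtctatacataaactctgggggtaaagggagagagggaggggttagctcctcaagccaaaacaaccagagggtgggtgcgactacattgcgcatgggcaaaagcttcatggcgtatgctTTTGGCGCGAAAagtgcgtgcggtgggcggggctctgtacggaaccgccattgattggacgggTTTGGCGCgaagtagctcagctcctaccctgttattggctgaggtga
Pola1: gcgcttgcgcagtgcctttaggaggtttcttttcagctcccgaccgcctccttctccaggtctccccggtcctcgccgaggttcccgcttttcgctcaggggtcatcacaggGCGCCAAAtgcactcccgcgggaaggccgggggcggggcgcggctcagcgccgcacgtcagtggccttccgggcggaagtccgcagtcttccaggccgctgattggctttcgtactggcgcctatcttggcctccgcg
In Mcm6 the first run of capitals holds 2 overlapping matches, on opposite strands, and a further match stands alone nearer the start. In the other 3 genes the match reads on the opposite strand.

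Of the arrays as a whole, 3 stood apart, those of APAP at both later times and of AMAP at 24 h. On them the bacterial dap control transcript, in its middle probe set, read -1.94 to -1.58 log2 against its 3′ probe set, compared with -0.60 to -0.44 on the other 6. For actin the 5′ probe set read -0.277 to -0.085 against the 3′ one on the 3 arrays and -0.470 to -0.265 on the other 6. For Gapdh it read 0.05 to 0.25 on the 3 and 0.21 to 0.29 on the other 6. The ranges of these 2 cell transcripts thus overlapped. All 9 measured hepatocyte markers were expressed, with a summed level between 13.9 and 14.5 log2. The sum was highest on the control array of 2 h, and at 2 h 8 of the 9 were below control in APAP, with a median of -0.46, and 9 in AMAP, with a median of -0.49. Of the markers of other liver cells, 1 of 8 measured macrophage genes, 1 of 7 stellate cell and fibroblast genes, 0 of 7 endothelial genes and 3 of 4 cholangiocyte genes were expressed. The cholangiocyte sum was 10.71 in APAP, 9.74 in AMAP and 9.27 in control at 2 h, and the part of either list in the results below was not tested. In such bulk RNA, fewer cells in S phase and less RNA per cell cannot be told apart. With 1 array for each treatment and time, differences at 1 time could not be tested, and the number of arrays limits the precision. Differences are in log2 units of the deposited values. A gene is counted as apart when it differed at least 1.5-fold (0.585 log2) and its brighter array reached 5.66, the median over the whole table.

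At 2 h the replication genes stayed close to control under both compounds. The median difference over the 34 expressed genes was 0.11 for APAP against control, with 23 above and 10 below 0, and 0.00 for AMAP against control, with 17 above and 15 below. Over all 6700 expressed genes both medians were -0.01. None of the 34 was apart at least 1.5-fold in APAP, where 3.75% of all expressed genes were so much higher and 6.01% lower. None was apart in AMAP either, where the shares over all genes were 3.42% higher and 2.64% lower. Of Pcna, the sliding clamp of the polymerases, the levels were 12.01 in APAP, 12.19 in AMAP and 12.05 in control. Its levels stayed between 11.70 and 11.87 at 6 h and between 11.81 and 11.96 at 24 h, so that the 9 arrays spanned 0.48. Mcm7, a helicase subunit, spanned 0.16 and Lig1, which seals nicks between Okazaki fragments, 0.24. The further probe sets of Mcm7 all ranged more widely. The widest went from 8.32 in APAP at 6 h to 9.15 in control at 2 h.

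**Figure D1:**
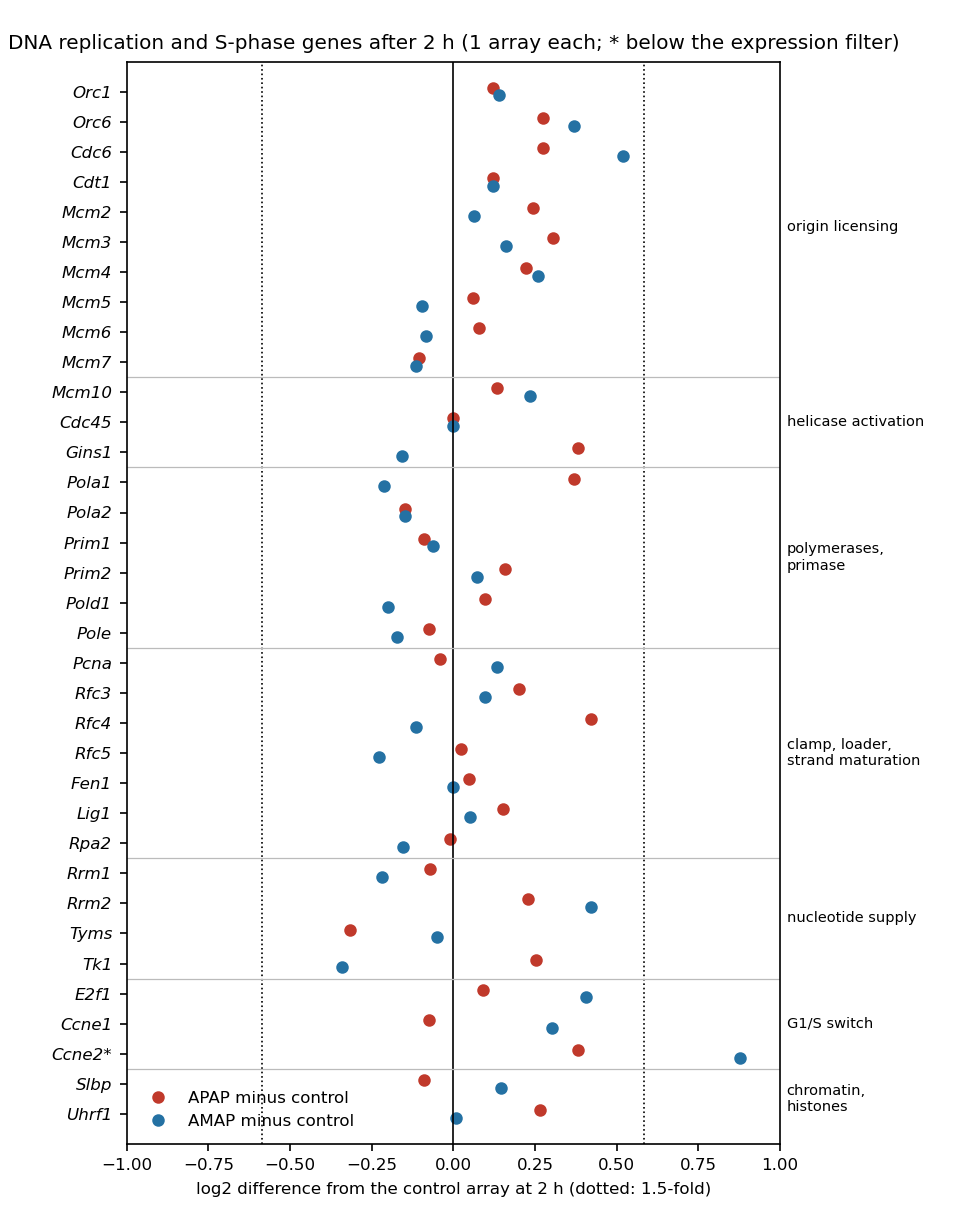
Log2 difference of each gene from the control array at 2 h (x axis) for APAP (red) and AMAP (blue), 1 array each, with genes grouped by role. Dotted lines mark 1.5-fold. All 34 expressed genes lie inside the lines, and Ccne2, marked with an asterisk for its mean below 5.67, lies outside in AMAP.

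The 10 genes of origin licensing leaned to the higher side at 2 h. In APAP 9 of the 10 were above control, with a median of 0.17, and in AMAP 7 were, with a median of 0.13. These counts were the same with the mean of all probe sets, after cyclic loess and after median centring. Those alternatives read the same single arrays and so do not measure the spread between arrays. Both compounds are set against the same control array here. Cdc6, the loader of the helicase, read 8.62 in APAP, 8.87 in AMAP and 8.35 in control, a difference of 0.27 for APAP and 0.52 for AMAP, and Orc6, a subunit of the origin recognition complex, was higher by 0.28 in APAP and 0.37 in AMAP. Mcm3 was higher by 0.31 in APAP and 0.16 in AMAP, Mcm4 by 0.22 in APAP and 0.26 in AMAP, and Mcm2 by 0.24 in APAP and 0.06 in AMAP. Mcm7 was the exception in APAP at -0.11. In AMAP the genes below control were Mcm5, Mcm6 and Mcm7, at -0.10, -0.08 and -0.11. All 4 expressed probe sets of Mcm3 were above control under both compounds, by 0.20 to 0.31 in APAP and by 0.06 to 0.32 in AMAP.

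At the G1/S switch AMAP was above both other arrays at 2 h. Ccne1, cyclin E1, had a level of 7.32 in APAP, 7.70 in AMAP and 7.39 in control. E2f1, the activating E2F factor, was at 7.19 in APAP, 7.51 in AMAP and 7.10 in control. Its further probe set was at 6.67 in APAP, 7.06 in AMAP and 6.90 in control and so differed from control by 0.16 in AMAP and by -0.24 in APAP. Ccne2, cyclin E2, is dim on these arrays and read 5.98 in APAP, 6.48 in AMAP and 5.60 in control. Its difference of 0.88 in AMAP (1.84-fold) was larger than that of any expressed member at 2 h, but its mean over the arrays was below the level set for expressed genes, and it has no further probe set with which to compare it.

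The genes of the polymerases, the clamp loader and nucleotide supply were on both sides of control at 2 h, and Cdc45, which joins the helicase when it is switched on, was listed at the same level, 6.63, on all 3 arrays. In AMAP 5 of the 6 polymerase and primase genes were below control, all by 0.21 or less, and in APAP 3 were above and 3 below. Rrm2, the small subunit of ribonucleotide reductase, was higher by 0.23 in APAP and 0.42 in AMAP, and its further probe sets gave 0.13 and 0.19 in APAP and 0.29 each in AMAP. Tk1, the S-phase thymidine kinase of the salvage route, was at 9.55 in APAP, 8.95 in AMAP and 9.30 in control. It was the only gene of the 34 apart at least 1.5-fold between the compounds at 2 h, by 0.59 (1.51-fold), where 2.55% of all genes were so much higher in APAP and 4.97% lower. Below it came Pola1, the catalytic subunit of polymerase alpha, at 0.58, Gins1 of the helicase activator GINS at 0.54, and Rfc4 of the clamp loader at 0.54. The further probe set of Rfc4 gave 0.71. Ccne1 and E2f1 were lower in APAP than in AMAP, by 0.38 and 0.31. The median over the 34 genes for APAP against AMAP was 0.07, against 0.00 for all genes.

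For comparison, mitosis genes were read on the same arrays at 2 h. Of 26 expressed genes of a list of spindle, kinetochore and anaphase genes, 25 were lower in AMAP than in control, with a median of -0.58. At least 1.5-fold lower were 13, where 2.64% of all genes were. Against AMAP, the APAP array was higher in 25 of the 26, with a median of 0.62. At least 1.5-fold higher were 14, where 2.55% of all genes were. Against control, APAP had a median of 0.02 for them. Ube2c, the ubiquitin-conjugating enzyme of the anaphase-promoting complex, was at 10.39 in APAP, 8.88 in AMAP and 10.23 in control, and Kif11, a spindle motor, at 7.27 in APAP, 6.39 in AMAP and 7.53 in control. No test was made of the difference between the lists. Among 39 further expressed replication genes the AMAP median was 0.02, and those at least 1.5-fold from control were Rrm2b, the p53-inducible subunit of ribonucleotide reductase, higher by 0.70, and Top2a, the topoisomerase that is also in the mitosis list, lower by 0.91. In APAP none of the 39 was apart. Of all genes, 3.42% were so much higher and 2.64% lower in AMAP, and 3.75% higher and 6.01% lower in APAP.

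**Figure D2:**
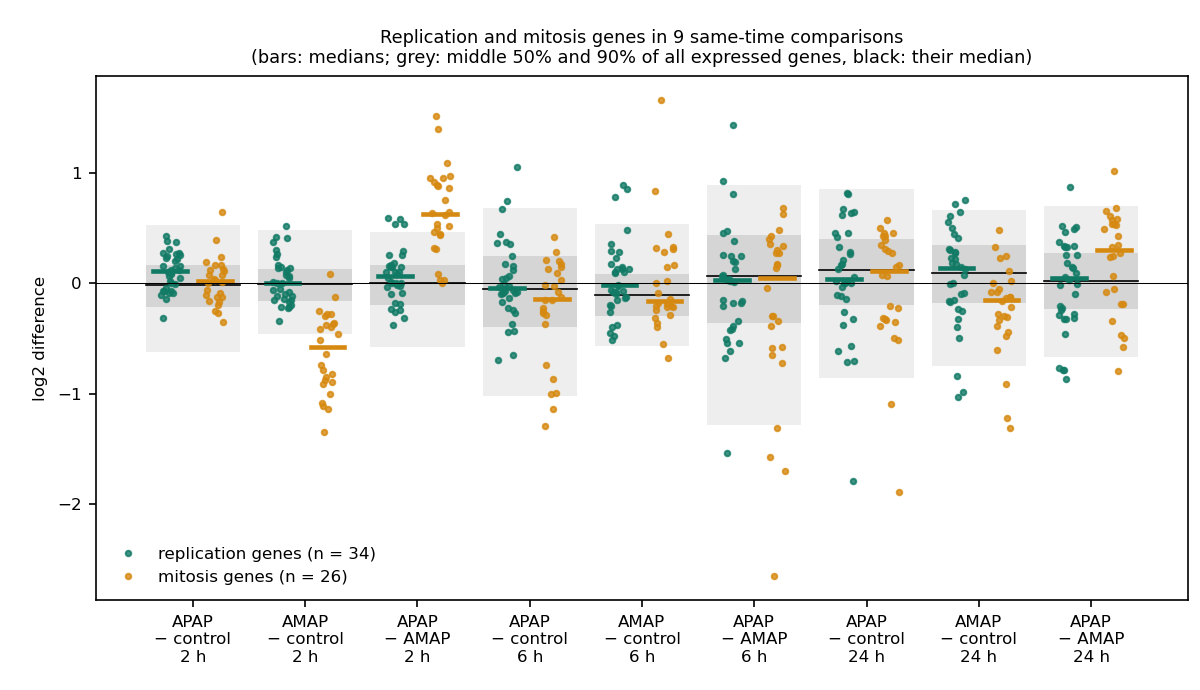
Log2 differences of the 34 expressed replication genes (green) and the 26 expressed mitosis genes (orange) in the 9 same-time comparisons. Points are genes, coloured bars the list medians, and grey boxes the central spread of all expressed genes with their median in black. The mitosis genes lie below 0 in AMAP against control at 2 h with a median of -0.58, while the replication genes have a median of 0.00.

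The regulators around the switch were read from lists of E2F, RB and CDK2 genes, of S-phase checkpoint genes and of CDK inhibitors. At 2 h in AMAP, 1 of 15 expressed genes of the first list was at least 1.5-fold lower and none so much higher: Rbl1, the retinoblastoma relative p107 and itself a known E2F target, at -0.61. In APAP, 2 of the 15 were so much higher, E2f8, a repressing E2F, by 0.65 and Myc by 0.76. Wee1, the kinase that holds back Cdk1, was the only checkpoint gene of 15 apart in AMAP, at -0.73, and none was in APAP. Cdkn1a, which encodes the CDK inhibitor p21, was at 9.22 in APAP, 10.35 in AMAP and 8.67 in control, so it was higher by 0.55 in APAP and 1.68 in AMAP. Mdm2, another p53 target, was higher by 0.10 in APAP and by 1.42 in AMAP. The gene for p53 itself is not analysed here.

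At 6 h more replication genes were apart, in both directions, and so were more genes in all. The APAP array of 6 h is one of the 3 that stood apart, and the part of this in the values was not tested. In APAP against control the median of the 34 was -0.05, the same as over all genes, with 3 at least 1.5-fold higher, against a share of 7.76% of all genes, and 2 lower, against 16.0%. Ccne1 was the highest, at 8.29 in APAP, 6.86 in AMAP and 7.24 in control, which is 2.07-fold above control and 2.69-fold above AMAP. Ccne2 went the other way, at 4.39 in APAP, 5.74 in AMAP and 5.26 in control. The other genes apart from control were Pold1, the catalytic subunit of polymerase delta, higher by 0.74, Tk1, higher by 0.67, and Pola1 and Pola2 of the polymerase alpha complex, lower by 0.65 and 0.70. For Pold1 the further probe set gave -0.09, against 0.74.

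In AMAP against control at 6 h the median was -0.02, where that of all genes was -0.10. At least 1.5-fold higher were 3 genes, where 4.07% of all genes were, and none was so much lower, where 4.45% were. They were Mcm2 (0.78), Pola1 (0.89) and Rfc4 (0.85). The further probe set of Mcm2 gave 0.17 and that of Rfc4 0.56, both short of 1.5-fold. Pola1 was at 6.43 in APAP, 7.97 in AMAP and 7.08 in control, and the control array was itself 1.04 lower at 6 than at 2 h, so AMAP at 6 h read close to its own 2 h level of 7.91. Rfc4 was at 7.39 in APAP, 8.07 in AMAP and 7.22 in control, and its further probe set at 5.53 in APAP, 7.12 in AMAP and 6.56 in control. The control of 6 h was the lowest of the 3 for the main probe set and not for the further one. Between the compounds, 3 genes were at least 1.5-fold higher in APAP (16.6% of all genes) and 3 lower (17.2%): Ccne1, Cdc45 and Pole were higher, by 1.43, 0.81 and 0.92, and Pola1, Pola2 and Rfc4 lower, by 1.54, 0.62 and 0.68.

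At 24 h Orc1, Cdc45 and Ccne1 were above the control array, and Rfc4 below it, under either compound. Both comparisons use that 1 control array, and both treated arrays are among the 3 that stood apart, whose part in these differences was not tested. In APAP against control 6 of the 34 were apart on the higher side and 4 on the lower, where 13.3% and 9.67% of all genes were. In AMAP against control 4 were higher and 3 lower, where 7.88% and 7.94% of all genes were. Orc1, the largest subunit of the origin recognition complex, was at 6.83 in APAP, 6.84 in AMAP and 6.19 in control. Cdc45, the helicase activator, was at 7.16 in APAP, 7.07 in AMAP and 6.35 in control. Ccne1 was at 7.83 in APAP, 7.78 in AMAP and 7.02 in control. All 3 genes were higher in both treated arrays than in the control array, by 0.63 in APAP and 0.64 in AMAP for Orc1, 0.81 in APAP and 0.72 in AMAP for Cdc45, and 0.82 in APAP and 0.76 in AMAP for Ccne1. None of these 3 genes has a further probe set on the array, and for each the APAP and AMAP levels at 24 h lay within 0.09 of each other. For Ccne1 and Cdc45 the control array of 24 h was also the lowest control. The controls of 2 and 6 h read 7.39 and 7.24 for Ccne1 and 6.63 at both times for Cdc45. In AMAP, Ccne1 was at 7.70 at 2 h, close to its level at 24 h.

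**Figure D3:**
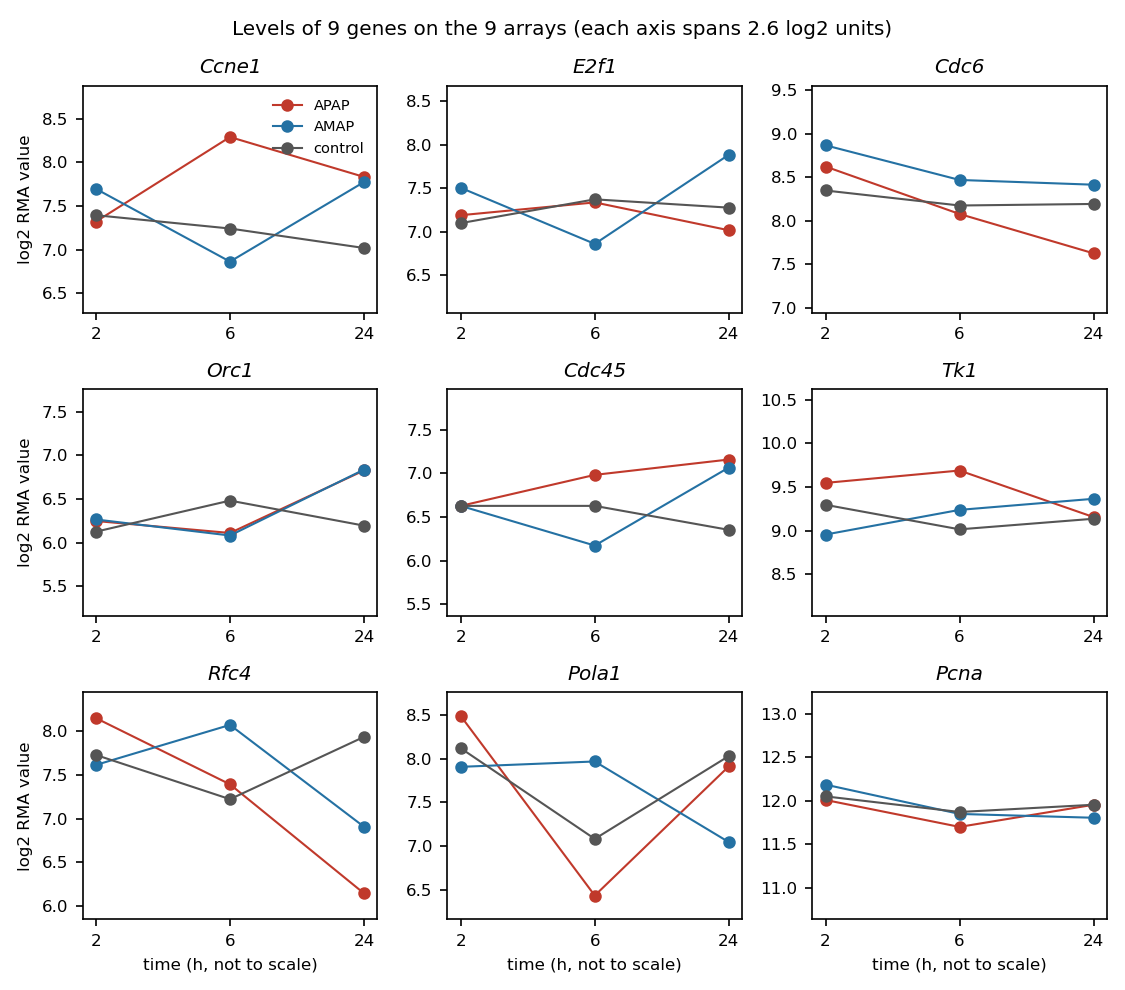
Levels of 9 genes (log2 RMA value, y axis, each spanning the same number of log2 units) in APAP (red), AMAP (blue) and control (grey) at 2, 6 and 24 h, 1 array per point. Ccne1, Orc1 and Cdc45 of both treated arrays lie above control at 24 h, Rfc4 lies below, and Pcna differs little.

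Rfc4 was the gene furthest below control at 24 h, at 6.14 in APAP, 6.91 in AMAP and 7.94 in control, which is 3.47-fold lower in APAP and 2.04-fold lower in AMAP. Its further probe set read 6.11 in APAP, 6.13 in AMAP and 6.93 in control, a difference of -0.82 for APAP and -0.79 for AMAP, so that both probe sets were lower and differed in size. Pola1 was at 7.91 in APAP, 7.04 in AMAP and 8.03 in control and so was lower in AMAP, by 0.99, and close to control in APAP. Mcm6 was lower in AMAP by 0.84, and its further probe set gave -3.16. The others lower in APAP were Mcm3 (-0.71), Gins1 (-0.62) and Uhrf1 (-0.71), a reader of hemimethylated DNA at the fork. The further probe sets of Mcm3 gave 0.61, 0.12 and -0.09 and that of Uhrf1 0.01, so neither gene was lower by its next brightest probe set, and Gins1 has no further one. The others higher in APAP were Prim1 of the primase (0.67), Fen1, the flap nuclease of Okazaki fragments (0.65), and Rrm1 of ribonucleotide reductase (0.62). Their further probe sets gave 0.13 for Prim1, 0.15 for Fen1 and 0.44 for Rrm1, all short of 1.5-fold. E2f1 was higher in AMAP by 0.61, at 7.02 in APAP, 7.88 in AMAP and 7.28 in control. The further probe set of E2f1 read 7.51 in APAP, 7.38 in AMAP and 6.77 in control, above control under both compounds. Between the compounds at 24 h, 1 gene was at least 1.5-fold higher in APAP, Pola1, where 7.79% of all genes were, and 4 were lower, Cdc6 (-0.79), Gins1 (-0.79), Rfc4 (-0.76) and E2f1 (-0.87), where 6.61% were. In that comparison E2f1 differed by 0.12 and Rfc4 by -0.03 in the further probe set.

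**Figure D4:**
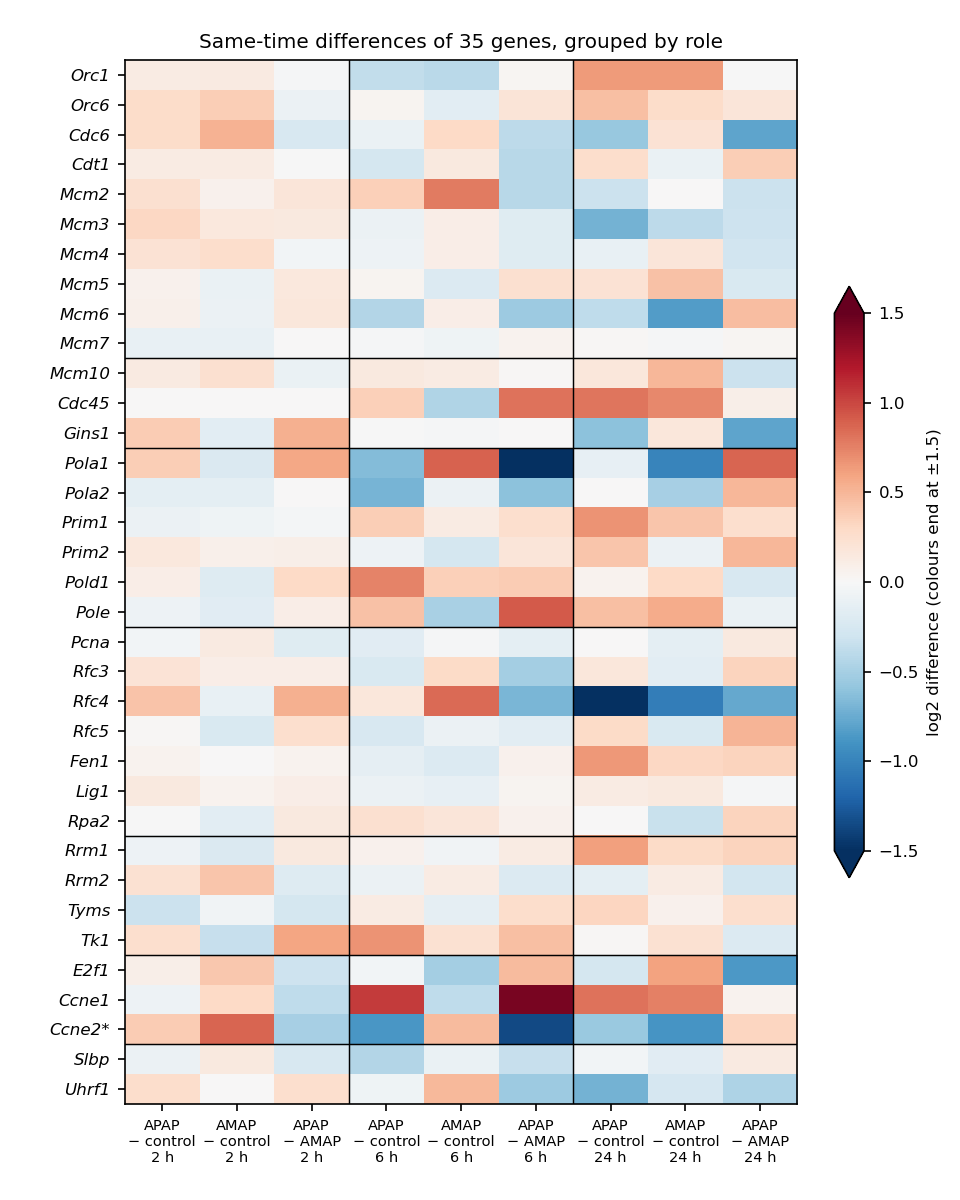
Same-time log2 differences of the 35 genes with a probe set (rows, grouped by role) in the 9 comparisons (columns, 3 per time). Red is higher and blue lower in the treatment named first, and colours end at 1.5 log2 units. Colours are pale at 2 h and stronger in both directions at 6 and 24 h.

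The further probe sets bear on how far a single difference can be read. Of the 34 genes, 16 have a further expressed probe set. At 2 h its difference had the same sign in 15 of 16 genes for APAP against control, in 12 for AMAP against control and in 12 for APAP against AMAP, and in no gene did the 2 differ by 1.5-fold or more. In the same order of comparisons, the same sign was found at 6 h in 5, 10 and 9 of 16 genes, and 5, 4 and 7 genes differed between probe sets by 1.5-fold or more. At 24 h the sign was the same in 10, 7 and 14 genes, with 7, 5 and 2 that far apart. Relative to its median over the arrays, the distance between further and main probe sets deviated by a mean of 0.49 to 0.64 log2 on the APAP arrays of 6 and 24 h and the AMAP array of 24 h. It deviated by 0.31 on the control array of 6 h and by 0.05 to 0.16 on the other 5. Mcm6 and Mcm4 showed the widest such gaps. The further probe set of Mcm6 minus the main one was -2.78 in APAP, -2.96 in AMAP and -2.94 in control at 2 h, -3.94 in APAP, -2.26 in AMAP and -4.62 in control at 6 h, and -5.46 in APAP, -4.92 in AMAP and -2.61 in control at 24 h. The same difference for Mcm4 was -1.98 in APAP, -2.29 in AMAP and -2.32 in control at 2 h, -4.57 in APAP, -1.78 in AMAP and -3.78 in control at 6 h, and -4.89 in APAP, -4.39 in AMAP and -1.96 in control at 24 h. In both genes the gap widened on the same 4 arrays, of which 1 is a control, while the main probe set of Mcm4 stayed within 0.51 over all 9. The further probe set of Mcm4 gave -3.04 for APAP against control at 24 h and the main one -0.11.

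**Figure D5:**
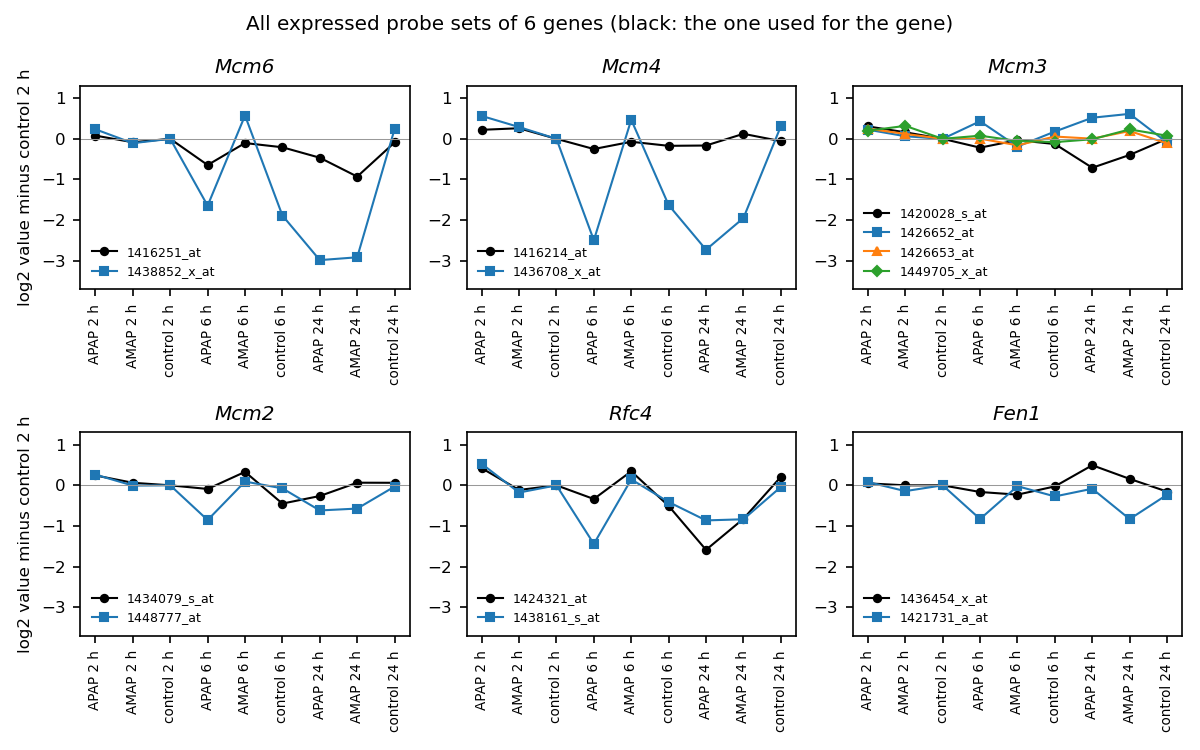
Log2 value minus that of the control array at 2 h (y axis) for all expressed probe sets of 6 genes over the 9 arrays (x axis, APAP, AMAP and control at each time), with the probe set used for the gene in black. The further probe sets of Mcm6 and Mcm4 are low on the APAP and control arrays of 6 h and the APAP and AMAP arrays of 24 h, while probe sets of 1 gene lie close together at 2 h.

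In the fit over all 9 arrays with time as a block (limma, 4 residual degrees of freedom), no replication gene passed an adjusted p of 0.05 for either compound or between them, and none of the 6700 expressed genes did. Under an unadjusted p of 0.05 there were 514, 30 and 285 of all genes (7.67%, 0.448% and 4.25%) for APAP against control, AMAP against control and APAP against AMAP, and 0, 0 and 1 of the 34. The 1 gene was Cdc6, lower in APAP than in AMAP by 0.24, 0.39 and 0.79 at 2, 6 and 24 h. Its shared difference in limma was -0.47 (95% interval -0.91 to -0.03, limma adjusted p = 0.87). Over the 34 genes the 95% intervals reached a median of 0.44 log2 to either side of the estimate, with 0.35 as the narrowest and 0.93 as the widest. The interval lay within 2-fold in both directions for 31 genes in APAP against control, 32 in AMAP against control and 32 in APAP against AMAP. Medians over the 34 genes were 0.05, 0.04 and 0.01. The largest shared difference for APAP against control was that of Ccne1, 0.60 (95% interval -0.13 to 1.32, limma adjusted p = 0.63).

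Between 1 and 5 of the 34 genes kept a given direction at all 3 times, depending on the comparison. In APAP, Orc6, Mcm5, Mcm10, Pold1 and Tk1 were above control at 2, 6 and 24 h and Slbp, which binds the histone mRNA stem-loop, was below. That is 5 and 1 of 34 (14.7% and 2.94%), where 15.7% and 14.4% of all genes kept a direction. The further probe set of Pold1 did not keep it, at -0.09 at 6 h. In AMAP, Cdc6, Mcm2, Mcm4, Mcm10 and Rrm2 were above and Mcm7, Pola2 and Rfc5 below. That is 5 and 3 of 34 (14.7% and 8.82%), where 4.61% and 8.22% of all genes were. The next probe set did not keep the direction for Mcm2, Mcm4, Mcm7 and Rrm2. At 2, 6 and 24 h it gave -0.01, 0.17 and -0.54 for Mcm2 and 0.29, -0.25 and 0.73 for Rrm2. By its main probe set, Mcm2 was above control by only 0.002 at 24 h. Mcm10, which acts with the helicase as origins open, was above control in both, by 0.13, 0.15 and 0.17 in APAP and by 0.24, 0.13 and 0.50 in AMAP. Both compounds were set against the same 3 control arrays. For APAP against AMAP, Mcm7, Prim2, Fen1, Rpa2 and Rrm1 were above at all 3 times and Cdc6, Mcm4 and Rrm2 below. These were 5 and 3 of 34 (14.7% and 8.82%), where 12.0% and 9.93% of all genes were. The next probe set kept the direction for Mcm7 but not for Fen1, Rpa2, Rrm1, Mcm4 and Rrm2. For Fen1 it gave -0.81 at 6 h. The dimmer probe sets of Mcm7 did not keep the direction either. The other genes named for the 3 comparisons have no further expressed probe set.

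Without treatment, too, most of the replication genes read lower at 6 than at 2 h. In control cells 26 of the 34 were lower at 6 than at 2 h, with a median of -0.14, where all expressed genes had a median of 0.07. Only Pola1 was lower by at least 1.5-fold (2.61% of all genes), at 7.08 at 6 h against 8.12 at 2 h, and none was so much higher (3.45%). Between 24 and 2 h, 23 were lower in control, with a median of -0.09, and none was apart by 1.5-fold, where 2.58% of all genes were higher and 1.31% lower. In APAP the median was -0.22 for 6 against 2 h and in AMAP -0.15. With treatment as a block the limma median was -0.17 for 6 against 2 h, with 29 of 34 below 0, where the median of all genes was 0.04. In any of the 3 time contrasts, 0 genes passed an adjusted p of 0.05. The APAP array of 6 h is among those that stood apart, and the control array of 6 h had the wider probe-set distances given above. In control, 6 against 2 h, the next probe set had the same sign in 12 of 16 genes and differed by 1.5-fold or more in 3. The part of these arrays in the lower values was not tested. Under an unadjusted p of 0.05 stood 114, 370 and 206 of all genes (1.7%, 5.52% and 3.07%) for 6 against 2, 24 against 2 and 24 against 6 h. Of the 34 they were Pola1 and Slbp, lower at 6 than at 2 h, Cdc6 and Mcm3, lower at 24 than at 2 h, and Pole, the leading-strand polymerase, higher at 24 than at 6 h. Slbp was at 9.18 in APAP, 9.53 in AMAP and 9.62 in control at 6 h, and all 3 were below the lowest level at 2 h, 9.81 in APAP. Its shared difference in limma was -0.48 (95% interval -0.87 to -0.08, limma adjusted p = 0.92).

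By promoter, the 12 genes with an E2F match had a median at 2 h of 0.14 in APAP against control and the 18 expressed genes without one 0.01. In AMAP against control these medians were 0.03 and 0.00. At 6 h the genes with a match had medians of -0.09 in APAP and 0.12 in AMAP, and those without one 0.09 in APAP and -0.07 in AMAP. Between the compounds at 6 h, APAP against AMAP, the medians were -0.29 with a match and 0.07 without. At 24 h the genes with a match had medians of 0.04 in APAP and -0.06 in AMAP, and those without one 0.10 in APAP and 0.18 in AMAP. The 4 genes whose promoters are printed ranged at 2 h between 0.08 (Mcm6) and 0.37 (Pola1) in APAP and between -0.21 (Pola1) and 0.52 (Cdc6) in AMAP.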

How the data were processed

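The authors deposited 1 log2 expression value per probe set and array, which the submitters' processing notes credit to RMA and Affymetrix Expression Console. Neither the version nor whether the 9 arrays were run together is given in the sources used here. RMA equalises probe intensities between arrays, which hides any difference in total RNA, and shrinks differences where signal is dim. Of 22690 probe sets, 64 were controls, and the platform annotation gave 1 gene symbol for 20380, several for 691 and none for 1555. A gene's probe set was the one with 1 symbol and the highest mean.

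Same-time differences were taken between single arrays. Effects shared by the times were fitted with limma 3.58.1 in R 4.3.3 on all 6700 expressed genes, with time (or treatment) as a block, and a gene was called at a Benjamini-Hochberg adjusted p below 0.05. Such a fit counts treatment by time as error. Replicates are the times, as no group has a repeated array.

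Members and lists were chosen with earlier results of these data known. All members with a probe set may be named. Of the other lists (further replication genes, E2F, RB and CDK2 genes, S-phase checkpoint, mitosis, CDK inhibitors, and Cdkn1a and Mdm2 as p53 targets), a comparison names at most the 4 genes that differed most at any time, and others, chosen after their values were seen, only where 5 or fewer were counted. Marker lists covered hepatocytes, cholangiocytes, macrophages, endothelial cells, and stellate cells with fibroblasts. Alternatives were a threshold of 2-fold, all genes without the filter, a gene's next probe set or the mean of its probe sets, median centring, cyclic loess, robust and trended variance priors, no block, leaving out each time or treatment, and leaving out the 3 arrays that stood apart. Promoter sequences are RefSeq's, with GRCm38.p6 coordinates.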

Additional observations from a re-analysis of the deposited data

Results flagged for a closer look

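For 2 genes, Pola1 and Rfc4, the difference between arrays at 6 h and that at 24 h had opposite signs and each was at least 1.5-fold. The difference between the times was not tested, as each value rests on 1 array per group. Pola1 differed by 0.89 in AMAP against control at 6 h and by -0.99 at 24 h. For APAP against AMAP it differed by -1.54 at 6 h and by 0.87 at 24 h. Rfc4 differed by 0.85 in AMAP against control at 6 h and by -1.03 at 24 h. The control array of 6 h had the lowest control level of both genes, 7.08 for Pola1 and 7.22 for Rfc4, against 8.12 and 7.73 at 2 h. The further probe set of Rfc4 gave 0.56 in AMAP against control at 6 h and -0.79 at 24 h. Pola1 has no further probe set, and the AMAP array of 24 h is among those that stood apart in the dap control transcript.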

How the results depend on the processing

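No gene passed the adjusted threshold of limma in any treatment or time contrast under any of the alternatives run, so these settings cannot rank the contrasts. Members below an unadjusted p of 0.05 numbered 0 to 2 per treatment contrast and 0 to 4 per time contrast. The medians over the 34 genes were small and those near 0 took either sign: for APAP against control they lay between 0.10 and 0.13 at 2 h over the alternatives, and between -0.10 (median centring) and 0.19 (next probe set) at 24 h. Median centring shifts arrays by their own medians, which were 5.75 for APAP and 5.61 for control at 24 h. Among the differences of at least 1.5-fold named in the text, 4 changed direction with another probe set. The next probe set gave -0.087 for Pold1 in APAP against control at 6 h, 0.01 for Uhrf1 and 0.61 for Mcm3 in APAP against control at 24 h, and 0.12 for E2f1 in APAP against AMAP at 24 h. The mean of all probe sets gave 0.053 for Mcm3. The cause was not tested. For differences at 1 time, no paired analysis was possible because each group has 1 array. The fits over all 9 arrays pair the treatments by time. Without that block 511, 20 and 296 genes were under an unadjusted p of 0.05 for APAP against control, AMAP against control and APAP against AMAP, and the 1 member, Cdc6, was no longer among them.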

Other observations

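In APAP at 6 and 24 h and in AMAP at 24 h, more of the further replication genes were apart from control than at 2 h. More of all genes were so too. In AMAP at 6 h only Topbp1 (0.64) and Pold4 (-0.66) were apart, where 4.07% of all genes were higher and 4.45% lower. In APAP against control at 6 h, 9 of 39 were at least 1.5-fold lower, where 16.0% of all genes were, among them Rpa1 of the single-strand binding complex (-1.41), Topbp1, the scaffold of origin firing and checkpoint signalling (-1.18), and Top2a (-1.14). At 24 h, 3 of 39 were that much lower in APAP and 5 in AMAP, where 9.67% and 7.94% of all genes were. Topbp1 (-1.23 in APAP and -0.96 in AMAP) and the dUTPase gene Dut (-1.20 in APAP) were among them. Of the 39, only Chtf18 (0.98), Pold4 (0.955) and Wdhd1 (0.63) were at least 1.5-fold higher in APAP at 24 h, where 13.3% of all genes were. In AMAP at 24 h only Chtf18 (0.79), Pold4 (0.88) and Recql4 (0.77) were, where 7.88% of all genes were. Of 15 S-phase checkpoint genes, 5 were at least 1.5-fold lower in APAP at 6 h, where 16.0% of all genes were, including Brca2 (-1.61) and Hus1 (-1.05). Cdkn1a was higher at 24 h by 1.42 in APAP and 0.94 in AMAP, and Cdkn1b, which encodes p27, was lower by 0.83 in both. These values rest on 1 array per group, and 3 of these arrays, of APAP at both times and of AMAP at 24 h, are those that stood apart.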
